A study of Mus musculus with 8 samples.

Results

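The enzymes and the transporter that make, oxidise and export the acylceramides of the skin barrier were followed through barrier formation in wild-type mouse dorsal skin, together with a sulfotransferase of the same layer. The 7 genes were Alox12b, Aloxe3, Pnpla1, Abhd5, Cyp4f39, Abca12 and Sult2b1. They were read through every probeset annotated to exactly 1 of these symbols, which gave 9 probesets among the 34945 tested, and 7 genes among 18193. Alox12b, Aloxe3, Pnpla1, Cyp4f39, Abca12 and Sult2b1 had 1 probeset each, so no other probe on the array checks their readings, and Abhd5 had 3. The tissue was whole dorsal skin at embryonic day 14.5 (E14.5, 2 arrays), 16.5 (E16.5, 3 arrays) and 18.5 (E18.5, 3 arrays). All embryos were wild-type, and no strain, treatment or transgene is named in the labels. The series asked which transcriptional programmes accompany epidermal differentiation.

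Acylceramides are ceramides whose very long acyl chain is hydroxylated at its far end and esterified to linoleic acid. Cyp4f39 is a fatty acid hydroxylase that adds this terminal hydroxyl group. Pnpla1 transfers linoleate to it from triglyceride, and Abhd5 (CGI-58) is the coactivator that recruits lipases and transacylases to lipid droplets. Abca12 loads glucosylated ceramides into the lamellar granules of granular keratinocytes. After secretion, the lipoxygenase encoded by Alox12b oxidises the linoleate, and the Aloxe3 product converts the resulting hydroperoxide, steps needed to bind ceramides to the cornified envelope. Sult2b1 makes cholesterol sulfate, another granular-layer lipid. Loss of any of these functions in people gives a form of ichthyosis, a disorder of scaling and barrier failure.

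The promoter sequences are shown for 5 of the genes because their signals were all highest at E16.5. Aloxe3 was highest at E16.5 as well, but no window was available for it. RefSeq windows on build GRCm38.p6, running from 250 bases before to 50 after each gene start, matched 6 of the 7 members and gave 7 windows. No source used here names a build for the array annotation. The windows lie at chr11:69156822-69157121 (plus strand, Alox12b), chr17:28858161-28858460 (plus, Pnpla1), chr17:32452473-32452772 (plus, Cyp4f39), chr1:71414861-71415160 (minus, Abca12) and chr7:45742429-45742728 (minus, Sult2b1). Capitals mark every match to the motifs searched, and each sequence reads 5′ to 3′ on the strand of its gene.
Alox12b: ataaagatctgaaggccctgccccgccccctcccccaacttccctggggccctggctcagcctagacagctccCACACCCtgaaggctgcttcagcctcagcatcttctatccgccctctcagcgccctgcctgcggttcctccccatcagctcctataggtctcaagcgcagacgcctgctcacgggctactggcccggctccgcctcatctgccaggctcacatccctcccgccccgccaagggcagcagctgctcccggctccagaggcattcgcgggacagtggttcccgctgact
Pnpla1: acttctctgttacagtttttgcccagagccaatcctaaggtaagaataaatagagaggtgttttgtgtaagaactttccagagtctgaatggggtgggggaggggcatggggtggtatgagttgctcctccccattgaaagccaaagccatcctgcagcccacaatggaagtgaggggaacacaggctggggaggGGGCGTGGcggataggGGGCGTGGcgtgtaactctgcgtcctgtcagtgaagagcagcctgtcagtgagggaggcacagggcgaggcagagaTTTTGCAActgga
Cyp4f39: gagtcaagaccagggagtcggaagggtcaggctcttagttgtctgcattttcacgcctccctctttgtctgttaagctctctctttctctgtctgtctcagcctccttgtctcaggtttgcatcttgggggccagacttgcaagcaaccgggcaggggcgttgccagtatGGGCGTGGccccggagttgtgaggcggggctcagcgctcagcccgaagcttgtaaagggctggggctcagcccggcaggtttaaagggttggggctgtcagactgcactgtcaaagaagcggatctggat
Abca12: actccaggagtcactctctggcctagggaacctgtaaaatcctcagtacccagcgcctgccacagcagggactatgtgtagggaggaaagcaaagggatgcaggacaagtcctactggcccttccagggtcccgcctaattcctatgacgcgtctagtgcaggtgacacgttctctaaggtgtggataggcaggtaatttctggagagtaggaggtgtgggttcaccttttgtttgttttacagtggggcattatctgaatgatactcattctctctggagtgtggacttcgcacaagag
Sult2b1: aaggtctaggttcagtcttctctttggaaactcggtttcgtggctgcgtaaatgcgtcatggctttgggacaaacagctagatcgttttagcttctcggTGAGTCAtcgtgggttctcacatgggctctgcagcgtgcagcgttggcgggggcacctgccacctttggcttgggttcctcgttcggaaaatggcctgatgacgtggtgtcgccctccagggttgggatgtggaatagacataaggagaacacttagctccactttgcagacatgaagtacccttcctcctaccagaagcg

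Motifs were searched on both strands, and a match is a description of letters and not of a bound site. The letters GGGCGTGG, a GC-rich variant of the KLF type, occurred at -55 and -39 from the gene start of Pnpla1 and at -80 of Cyp4f39. This motif was added after the windows had been read, and 5.33% of all 32851 windows held it. TTNNGCAA (C/EBP) matched at 38 in the Pnpla1 window, against 10.8% of all windows. TGANTCA (AP-1) matched at -151 in the printed Sult2b1 window, against 7.81% of all windows. GGGTGTG (KLF) matched on the opposite strand at -177 of Alox12b, against 7.95% of all windows. AGGTCA (nuclear receptor half-site) matched only in the Abhd5 window, chr9:122351366-122351665, on the opposite strand at -69, against 16.3% of all windows. No member window held TATAAA (13.6% of all windows) or AACCGGTT (Grainyhead-like, 0.146%). The Abca12 window and the other Sult2b1 window, chr7:45759563-45759862, held none of these motifs. The member windows had a GC content of 51.3% to 67.7%, beside a median of 52.7% over all windows. Alox12b and Aloxe3 are direct neighbours on chromosome 11, between Hes7 and Alox8.

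Values were signal intensities on a linear scale, and changes are differences of log2(signal + 16), so the change of a dim gene is understated. Differences were tested in limma over all 34945 probesets and called where the p adjusted by Benjamini-Hochberg was under 0.05. Background was set on each array as the 95th percentile of 80 olfactory and vomeronasal receptor probesets, which came to a signal of 33.4 to 92.2. Between 12186 and 13828 genes lay above it. The E14.5 arrays stood apart: their actin 3′/5′ control ratios were 6.49 and 6.91, where the E16.5 arrays had 1.11 to 1.14 and those of E18.5 had 1.35 to 1.37. Their median signals were 60.8 and 63.4, against 120.1 to 152.6 on the other arrays. Stage and array preparation therefore cannot be told apart in comparisons with E14.5, so the later interval comes first below. The labels name no litter or animal. Titles hold codes, some of whose numbers recur across stages, and no source says what they stand for. The p-values here reflect only how far these samples spread, which may be technical.

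Between E16.5 and E18.5, 4 of the 7 genes fell (Alox12b, Sult2b1, Cyp4f39 and Pnpla1) and none rose. Over all genes, 11.9% were called in this comparison, 5.21% lower and 6.69% higher. The median log2 change was -1.09 for the members and 0.12 for all genes. Aloxe3, Abca12 and Abhd5 were not called.

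Alox12b had signals of 5824, 7350 and 7575 on the E16.5 arrays and of 1482, 3765 and 1720 at E18.5. Every E18.5 array lay below every E16.5 array, and E18.5 replicate 2 stood above the other two. Alox12b thus fell by 1.68 ± 0.37 (SE) on the log2 scale, a 3.21-fold drop (adjusted p = 0.0171). The call was lost without E16.5 replicate 2 (adjusted p = 0.0640), without E16.5 replicate 3 (0.0747), without E18.5 replicate 1 (0.0616) and with no variance trend (0.0551).

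Aloxe3, whose product acts directly on that of Alox12b, had signals of 1441, 2096 and 1924 at E16.5 and of 1030, 1450 and 1018 at E18.5. The stages overlapped, since E18.5 replicate 2 exceeded E16.5 replicate 1. The log2 change was -0.64 ± 0.31, with a 95% interval of -1.31 to 0.04 (adjusted p = 0.206). This interval includes a drop of more than 2-fold as well as no change.

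The balance between the lipoxygenases was read within each array as the log2 signal of Alox12b minus that of Aloxe3. This difference was 2.00, 1.80 and 1.97 at E16.5 and 0.52, 1.37 and 0.75 at E18.5. It was lower on every E18.5 array, and its mean moved by -1.05 between the stages. The exact two-sided permutation p was 0.1, the smallest that 3 arrays against 3 can give. The 2 arrays of E14.5 gave 2.44 and 2.39, although Aloxe3 was below background on 1 of them. Only the movement between stages can be read here, since levels of different probesets cannot be compared.

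**Figure D1:**
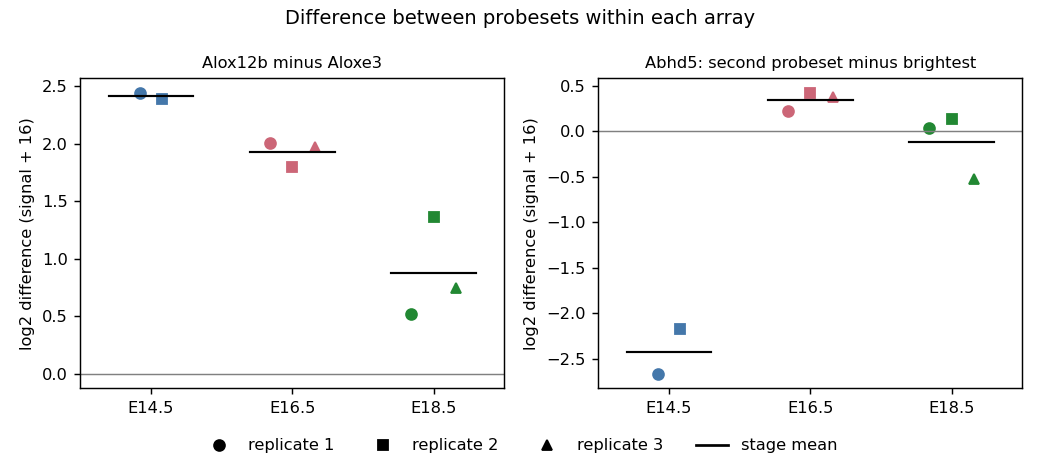
Differences of log2(signal + 16) between 2 probesets on the same array, for Alox12b minus Aloxe3 (left) and for the Abhd5 probesets (right), by stage. Points are arrays and bars are stage means; the lipoxygenase difference drops from 1.80 to 2.00 at E16.5 to a range of 0.52 to 1.37, and the Abhd5 difference is below -2 on both E14.5 arrays only.

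Pnpla1, the linoleate transferase, had signals of 864, 1142 and 1317 at E16.5 and of 596, 829 and 501 at E18.5. The stages did not overlap, but the highest E18.5 array came close to the lowest of E16.5. Pnpla1 fell by 0.78 ± 0.22 on the log2 scale, 1.72-fold, with an adjusted p of 0.0480. The call was lost in 14 of 20 alternative settings, with adjusted p-values from 0.0264 to 0.198 over all of them. Among those were the runs without E16.5 replicate 1 (0.0543), E16.5 replicate 2 (0.149), E16.5 replicate 3 (0.198), E18.5 replicate 1 (0.107), E18.5 replicate 3 (0.106) and either E14.5 array (0.0535 and 0.0540).

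Cyp4f39, the hydroxylase, had signals of 2060, 1926 and 2197 at E16.5 and of 910, 1256 and 764 at E18.5. The groups were well apart, and Cyp4f39 fell by 1.09 ± 0.19, or 2.13-fold (adjusted p = 0.00607). Sult2b1, the cholesterol sulfotransferase, had 3299, 4027 and 3997 at E16.5 against 1634, 1807 and 1057 at E18.5. It fell by 1.35 ± 0.21, or 2.55-fold (adjusted p = 0.00383). Both calls held in all 20 alternative settings.

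Abca12, the lamellar granule transporter, had signals of 285, 381 and 373 at E16.5. At E18.5 it had 70.0, 243 and 131, and the first of these lay below the background of its array (92.2). No E18.5 array reached the E16.5 range, and the drop was at least 2.24-fold when the dim array was set to its background. The log2 change of -1.28 ± 0.46 was not called (adjusted p = 0.103; 95% interval -2.29 to -0.26). With a pseudocount of 64 in place of 16, the adjusted p was 0.0493.

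Abhd5, the coactivator, was called on no probeset in this interval, and its detected probesets differed in sign. Its brightest probeset (1417565_at) had 1289, 1244 and 1280 at E16.5 and 1459, 1639 and 1514 at E18.5, all higher than at E16.5. The log2 change of 0.27 ± 0.12 was not called (adjusted p = 0.169). A probeset with a lower mean (1417566_at) had 1508, 1676 and 1660 at E16.5 and 1494, 1807 and 1050 at E18.5, which overlapped. Its change of -0.19 ± 0.23 was not called (adjusted p = 0.633) and had the opposite sign without E18.5 replicate 3 (0.03). The remaining Abhd5 probeset (1447548_at) was below background on all 8 arrays, with signals of 3.24 to 28.1. Of the 9 member probesets, 5 were lower and 1 was higher on every E18.5 array than on every E16.5 array, against 13.6% and 23.2% of all probesets.

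**Figure D2:**
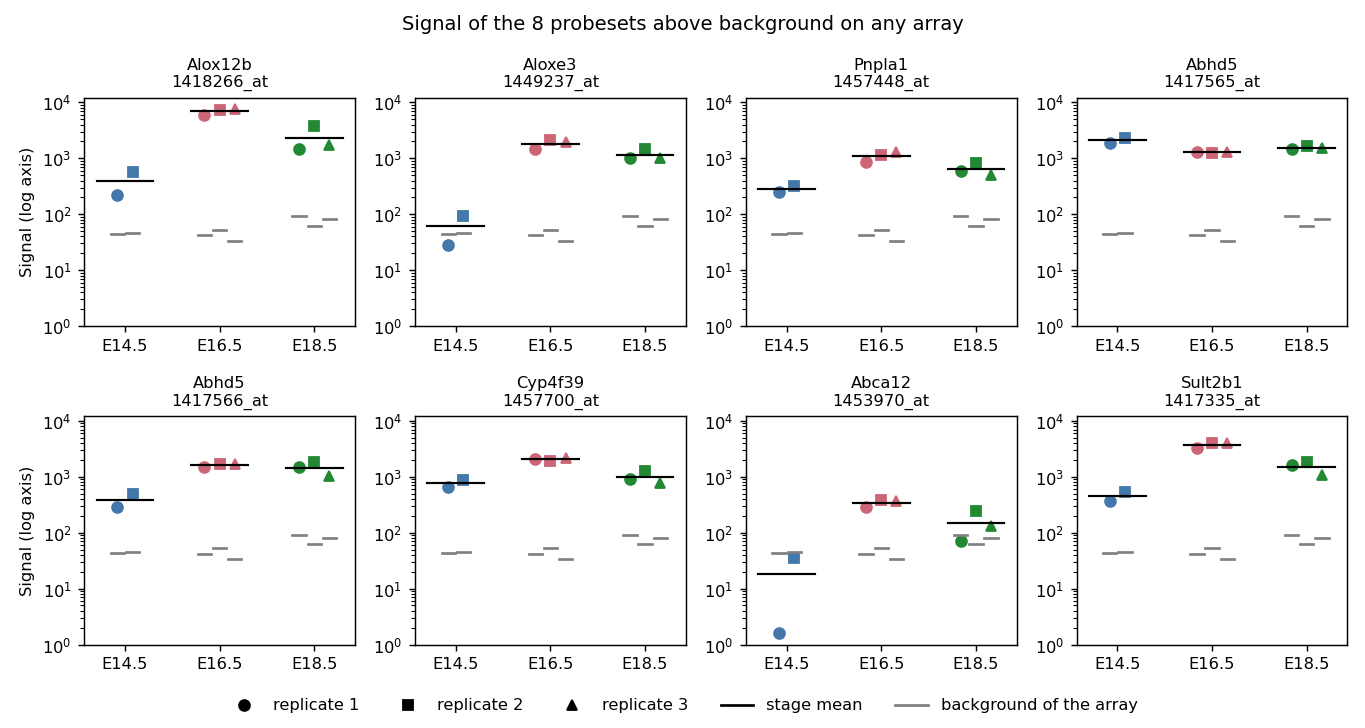
Signal (log axis) of the 8 probesets that were above background on at least 1 array, by stage; symbols mark replicates, black bars stage means and grey ticks the background of each array. Alox12b, Pnpla1, Cyp4f39, Abca12 and Sult2b1 have every E18.5 array below every E16.5 array, and only Aloxe3 and Abca12 have arrays under background.

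Replicates within a stage differed in a shared way. E18.5 replicate 2 was the highest of its stage in 8 of the 8 detected member probesets, while it was the highest for 28.5% of all probesets. E14.5 replicate 2 was the higher of its pair in 8 of 8 (53.3% of all probesets), and E16.5 replicate 1 was the lowest in 6 of 8 (34% of all probesets). For Alox12b the SD at E18.5 was 54.0% of the mean, against 13.8% at E16.5. Within a stage, the members' deviations thus largely shared a direction.

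Marker lists of other cells moved between these stages too. The 7 basal keratinocyte markers were above background on all 8 arrays. Their summed signal ranged from 50625 to 56687 at E16.5 and from 57878 to 69738 at E18.5. Of these markers 1 was called higher and none lower, with a median change of 0.24. The summed signal of 8 suprabasal and granular keratinocyte markers ranged from 110510 to 128302 on the E16.5 arrays and from 123960 to 131839 on those of E18.5, with 1 gene called higher and 3 lower. The mean log2 value of the same list, in which each gene counts alike, went from 13.14, 13.59 and 13.44 to 12.84, 13.03 and 12.80, so the sums overlapped while the mean was lower on every E18.5 array. The genes called lower were Krt77 (-5.27, adjusted p = 9.8e-06), Ivl (-1.05, 0.00848) and Tgm3 (-0.94, 0.00799), and Flg was called higher (1.91, 0.0165). Krt1 (0.54, 0.0516), Krt10 (0.40, 0.0581), Lor (0.26, 0.281) and Cdsn (0.15, 0.723) were not called. Of these, Krt1, Krt10 and Lor were still higher on every E18.5 array, and Cdsn overlapped. The median change of the list was 0.20, so the lower mean leaned on the drop of Krt77, the largest change, and was not shared by the whole list. The sum of adipocyte markers went from between 9187 and 12968 to between 43261 and 56910 (6 of 6 rose). Hair follicle markers summed to 1750 to 2126 and then to 10842 to 36940 (7 of 7 rose), and of 8 periderm markers 5 fell and 1, Krt17, rose. In whole skin, fewer granular cells and less RNA per cell cannot be told apart, and the part of the growing adipose and follicle tissue in the members' drop was not tested. Among the E18.5 arrays, replicate 1 had the highest follicle sum and replicate 2 the highest adipocyte sum.

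**Figure D3:**
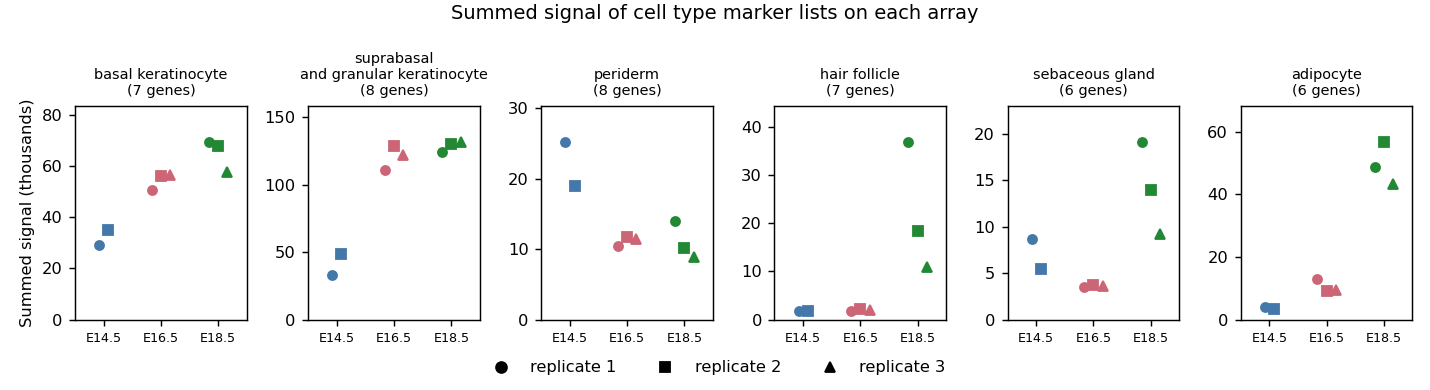
Summed signal of the measured genes of 6 marker lists on each array, by stage; symbols mark replicates and every axis starts at 0. The sums of suprabasal and granular markers overlap between E16.5 and E18.5, whereas follicle and adipocyte markers are far higher at E18.5.

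From E14.5 to E16.5, 6 of the 7 genes rose on their brightest probeset and Abhd5 fell. In this comparison 57.9% of all genes were called (37.1% higher and 20.8% lower), so a call alone says little about a member. The median log2 change was 3.03 for the members and 0.29 for all genes. With each array centred on its median instead, 5 rose and 1 fell, with a median of 2.08. That centring moves the median of all probesets from 0.38 to -0.57, and the share of calls that were higher from 67.5% to 33.1% (52.5% after quantile normalization).

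Alox12b had signals of 222 and 561 at E14.5, and no E16.5 array was below 5824. It rose by 4.22 ± 0.41, or 18.6-fold (adjusted p = 6.35e-06). Aloxe3 had 27.7 and 94.0 at E14.5, the first below background, and rose by 4.71 ± 0.34, at least 22.3-fold (adjusted p = 7.58e-07). Alox12b was above background on both E14.5 arrays and Aloxe3 on 1 of them.

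Sult2b1 had 369 and 538 at E14.5 and rose by 3.03 ± 0.23, or 8.17-fold (adjusted p = 1.21e-06). Abca12, at 1.61 and 35.0, was below background on both E14.5 arrays and above it on all 3 of E16.5. Its rise of 3.58 ± 0.51 (adjusted p = 0.000119) is therefore given as at least 5.91-fold.

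Pnpla1 and Cyp4f39, which act in acylceramide synthesis, rose too on the 1 probeset that each has. Pnpla1 had 249 and 323 at E14.5 and rose by 1.88 ± 0.25, or 3.69-fold (adjusted p = 6.1e-05). Cyp4f39 had 658 and 892 and rose by 1.41 ± 0.21, or 2.65-fold (adjusted p = 0.000164). With arrays centred on their medians Cyp4f39 was no longer called (0.45, adjusted p = 0.105).

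The Abhd5 probesets disagreed in this interval. The brightest had 1901 and 2274 at E14.5 and fell by 0.70 ± 0.13 (1.63-fold, adjusted p = 0.000833). The second, 1417566_at, had 285 and 492 and rose by 2.06 ± 0.25 (4.17-fold, adjusted p = 3.8e-05). The difference between them within an array was -2.67 and -2.17 at E14.5 and 0.22, 0.43 and 0.37 at E16.5. Such disagreement was common here: of the 5068 genes that had 2 or more called probesets, 2540 (50.1%) were called both up and down, against 83 of 498 (16.7%) between E16.5 and E18.5. The direction of Abhd5 between E14.5 and E16.5 is thus not settled by these probesets, and the part of the E14.5 array preparation in it was not tested. The other members have 1 probeset each, so such disagreement could not be seen for them. The choice of 1417565_at as the brightest also rested on the E14.5 arrays. At E16.5 its mean signal was 1271, against 1615 for 1417566_at, and at E18.5 the means were 1537 and 1450. The mean of the Abhd5 probesets gave 0.36 (adjusted p = 0.139).

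**Figure D4:**
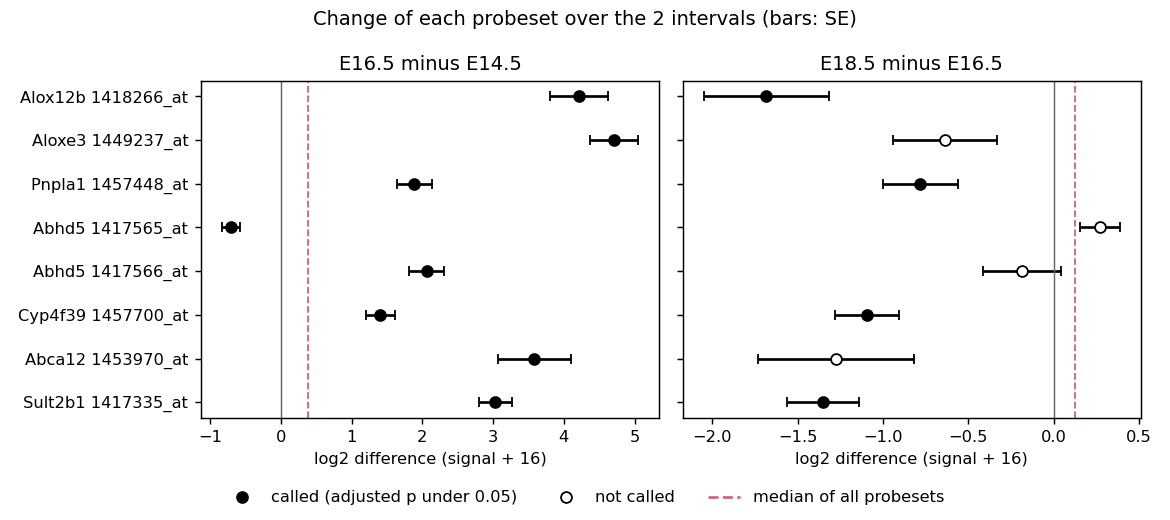
Log2 change of signal + 16, with its SE as bars, for the 8 detected probesets from E14.5 to E16.5 (left) and from E16.5 to E18.5 (right). Filled points are called at an adjusted p under 0.05 and dashed lines are the median of all probesets, 0.38 and 0.12; the brightest Abhd5 probeset lies opposite to the other probesets in both panels.

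Set side by side, Alox12b, Pnpla1, Cyp4f39 and Sult2b1 rose and then fell, 4 of 7 genes, beside 3.18% of all genes with this pair of calls. The intervals share the E16.5 arrays, so a high reading there would enter both. The changes of the second and the first interval were also compared directly in the fit. The second minus the first was -5.90 for Alox12b, -5.35 for Aloxe3, -4.86 for Abca12, -4.38 for Sult2b1, -2.67 for Pnpla1 and -2.50 for Cyp4f39, all called. For Abhd5 it was 0.97 on the brightest probeset and -2.25 on the second, both called. In this comparison 45.1% of all genes were called, 27.5% lower and 17.6% higher. It includes the step from E14.5, in which array preparation cannot be told apart. A call here therefore does not by itself show a late drop, and the later changes of Aloxe3 and Abca12 were not called.

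On the brightest probeset, the order of stages was E16.5, then E18.5, then E14.5 for every gene but Abhd5. The means of Abhd5 1417566_at had this order too (1615, 1450 and 388), though its E16.5 and E18.5 arrays overlapped. For Alox12b, Pnpla1 and Sult2b1 each step in that order was called. Against E14.5, Alox12b was 5.79-fold higher at E18.5 (2.53 ± 0.41, adjusted p = 0.000294), Sult2b1 3.20-fold (1.68 ± 0.23, 0.000104) and Pnpla1 2.15-fold (1.102 ± 0.25, 0.00264). For Aloxe3 the E16.5 and E18.5 arrays overlapped, and for Abca12 they did not overlap but the step between them was not called. At E18.5 Aloxe3 was at least 14.4-fold (4.07 ± 0.34, adjusted p = 2.39e-06) and Abca12 at least 2.44-fold (2.31 ± 0.51, adjusted p = 0.00253) above E14.5. For Cyp4f39 it was E18.5 and E14.5 that were not distinguished (0.31 ± 0.21, adjusted p = 0.223). The brightest Abhd5 probeset had E14.5 highest and was lower at E18.5 (-0.43 ± 0.13, adjusted p = 0.0149), while 1417566_at was higher at E18.5 (1.87 ± 0.25, adjusted p = 8.07e-05).

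Against E14.5, 5 genes were thus higher at E18.5 and 1 lower, where 61% of all genes were called, 41.6% higher and 19.4% lower. Median centring left Alox12b and Aloxe3 as the members called higher on their brightest probeset: Pnpla1 (0.03, adjusted p = 0.919), Abca12 (1.24, 0.0551) and Sult2b1 (0.61, 0.0575) were not called, and Cyp4f39 was called lower (-0.75, 0.0146). Quantile normalization also removed the Pnpla1 call (0.38, adjusted p = 0.261).

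Profiles over the 8 arrays were compared by the Euclidean distance of log2 values centred on each probeset's mean, among 14134 genes. Within the members, Alox12b and Abca12 were closest (0.85), followed by Pnpla1 and Cyp4f39 (0.96). Aloxe3 and Abhd5 were farthest apart (6.24). Distances were taken for the brightest probeset only. The other detected Abhd5 probeset moved the opposite way from E14.5, so the distances and nearest genes of Abhd5 rest on that choice. The nearest genes to Alox12b were Cnfn (0.81), which encodes a cornified envelope protein, Ly6g6c (0.96) and Rnf39 (1.03). Cnfn was also the nearest to Abca12 (0.90), ahead of Glb1l2 (0.96) and Serpinb7 (1.03).

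Aloxe3 lay nearest to Nkpd1 (0.48), Anxa9 (0.56) and Cpm (0.71), and Sult2b1 to Ly6g6e (0.42), Xkrx (0.51) and Sema4a (0.55). Pnpla1 lay nearest to Abhd6 (0.38), a monoacylglycerol lipase of the same fold family as Abhd5, then Myo1e (0.41) and Adtrp (0.43). The neighbours of Cyp4f39 were Adh6b (0.29), Tmem50b (0.37) and Tgm3 (0.37), an epidermal transglutaminase. The brightest Abhd5 probeset lay nearest to Pfdn1 (0.19), the desmosomal gene Dsp (0.19) and Mettl18 (0.22). These distances describe 8 arrays that share the stage steps. Values were centred but not scaled, so a distance also grows with the size of the changes. The step from E14.5, in which array preparation cannot be told apart, enters every distance, and Abca12 was below background on both E14.5 arrays.

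For this list and those below, the shares of all genes called between E16.5 and E18.5 were 5.21% lower and 6.69% higher. Between E14.5 and E16.5 they were 20.8% lower and 37.1% higher. Among 34 measured partners in the acylceramide pathway and the cornified lipid envelope, 14 fell and 3 rose between E16.5 and E18.5, with a median of -0.46 (0.12 over all genes). Between E14.5 and E16.5, 23 rose and 5 fell, with a median of 1.33 (0.29 over all genes); after median centring 16 rose and 8 fell. Sptlc3, a subunit of serine palmitoyltransferase, fell by 1.78 ± 0.21 in the second interval (adjusted p = 0.000968), and the ceramidase gene Asah2 fell by 1.13 ± 0.25 (adjusted p = 0.0183). In that interval the ceramide desaturase and hydroxylase gene Degs2 rose at least 4.35-fold (adjusted p = 0.000226) and the fatty acid elongase gene Elovl3, also a sebaceous marker, at least 5.21-fold (adjusted p = 0.00618). Each was at or below background on at least 1 E16.5 array. In the first interval Ivl rose by 5.61 ± 0.22 and Tgm1 by 4.26 ± 0.22, both envelope genes, while Kdsr fell by 2.99 ± 0.14 and Elovl4 by 1.19 ± 0.20 (adjusted p = 2.62e-08, 9.94e-08, 4.76e-08 and 0.00045). The Kdsr call rested on its brightest probeset, as the mean of its 3 probesets gave -0.22 (adjusted p = 0.213). The Asah2 call was lost without E16.5 replicate 2 (adjusted p = 0.0605), without E16.5 replicate 3 (0.0911), with no variance trend (0.0556) and on the mean of its probesets (0.179).

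A few direct neighbours of the members in the pathway are given here, chosen after their values were seen. Slc27a4, which activates very long fatty acids, rose by 3.37 and then fell by 0.86 (adjusted p = 4.08e-07 and 0.0227). The later Slc27a4 call was lost without replicate 2 or 3 of E16.5 (0.0947 and 0.108), without replicate 2 or 3 of E18.5 (0.0521 and 0.0513) and with no variance trend (0.0648). Ephx3 and Sdr9c7, which act after the lipoxygenases, rose by 2.55 and 1.30 (adjusted p = 3.5e-05 and 0.0104). Their later changes of -0.97 and -0.96 were not called (adjusted p = 0.0504 and 0.0865). Ephx3 was called lower in 10 of 20 alternatives, such as without either E14.5 array (0.0210 and 0.0214), and Sdr9c7 without E18.5 replicate 2 (-1.37, 0.0137). The early Sdr9c7 rise was not called without E14.5 replicate 1 (0.126) or after median centring (0.434). Cers3, the ceramide synthase that uses the Cyp4f39 product, was called in neither interval (0.25 and -0.37, adjusted p = 0.476 and 0.366), but lower in the first after median centring (-0.70, 0.0474). Nipal4 rose by 0.65 in the first interval (adjusted p = 0.0164), though it was at -0.31 after median centring and not called without E14.5 replicate 1 (0.112) or without replicate 1 or 2 of E16.5 (0.0502 and 0.0632). Its later change of -0.40 was not called (0.174). Elovl1, a fatty acid elongase gene, rose by 0.95 (adjusted p = 9.7e-05), which median centring removed (adjusted p = 0.9996). It was then at -0.37 (0.0726), called in 5 of 20 alternatives, among them without E18.5 replicate 2 (0.0244).

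**Figure D5:**
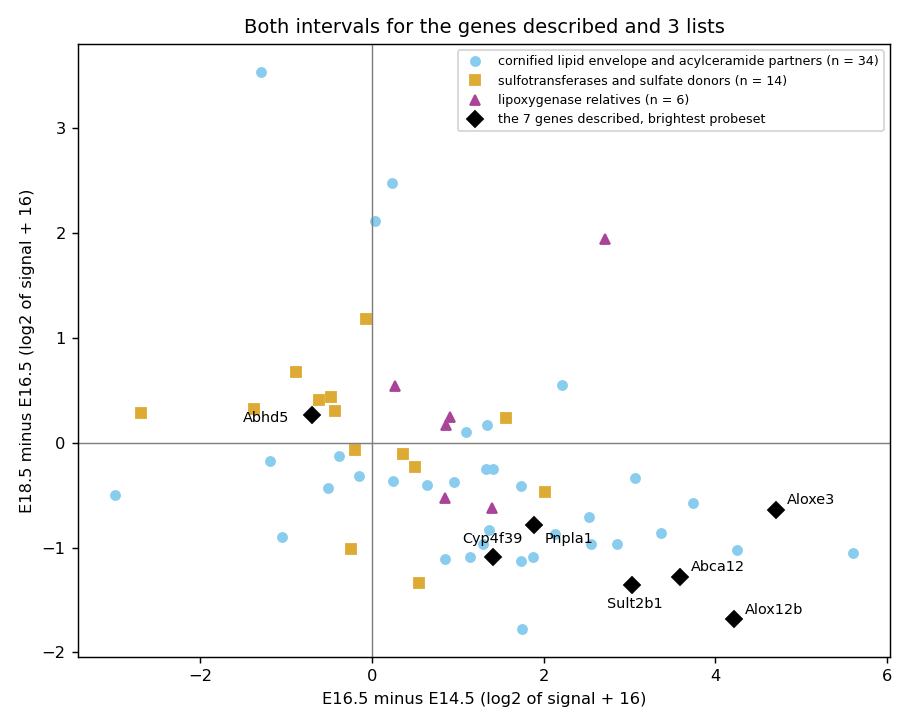
Log2 change from E14.5 to E16.5 (x axis) against that from E16.5 to E18.5 (y axis) on the brightest probeset, for the 7 genes (diamonds) and for acylceramide partners (34), sulfotransferases and sulfate donors (14) and lipoxygenase relatives (6). Both axes use the E16.5 arrays; 6 of the 7 genes lie at the lower right, and Abhd5 at the upper left.

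Of 6 lipoxygenase relatives, 1 rose and none fell between E16.5 and E18.5 (1 rose and 1 fell after median centring), beside the 5.21% of all genes called lower. Between E14.5 and E16.5, 4 rose and none fell, again 1 and 1 after median centring. Alox12e, the epidermal arachidonate lipoxygenase gene, rose in both intervals, at least 4.24-fold and then by 1.94 ± 0.37 or 3.84-fold (adjusted p = 0.00018 and 0.00935). Alox5ap, which encodes the activating protein of leukocyte lipoxygenase, rose by 0.91 ± 0.18 in the first (adjusted p = 0.00135), but was not called after quantile normalization (0.28, 0.239) and lay at -0.046 after median centring.

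Of 18 genes of patatin-like and Abhd5-dependent lipolysis, 4 rose and 1 fell in the second interval (median 0.44, 0.12 over all genes). In the first, 11 rose and 2 fell (median 1.40, 0.29 over all genes). After median centring 8 rose and 3 fell early, with a median of 0.45. The gene that fell late was Abhd6 (-0.92 ± 0.20, adjusted p = 0.0162), a call lost without replicate 2 or 3 of E16.5 (0.0651 and 0.0813) and with no variance trend (0.0508). The named late rises were those of the lipid droplet genes Cidec, at background at E16.5 (at least 4.59-fold, adjusted p = 0.000581), and Plin4 (2.31 ± 0.32 or 4.95-fold, adjusted p = 0.0022). Cidec is itself an adipocyte marker, so this list moved with the adipocyte markers given above. Early, Plin3 rose by 4.04 and Cidea at least 2.85-fold, while Plin2 fell by 1.31 and Hilpda by 0.68 (adjusted p = 1.01e-07, 5.96e-06, 0.000428 and 0.0454). The Hilpda call was lost without either E14.5 array (0.226 and 0.0527), any E16.5 array (0.0651, 0.0900 and 0.132) or E18.5 replicate 2 (0.0532).

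Among 11 ABCA transporters besides Abca12, 2 fell late: Abca5 (-0.999 ± 0.27, adjusted p = 0.0435) and Abca7 (-0.74 ± 0.20, adjusted p = 0.0407). Each of these calls was lost in 8 of 20 alternative settings, 5 of which left out 1 array: any of E16.5 for both genes, E18.5 replicates 1 and 3 for Abca5, and E18.5 replicates 2 and 3 for Abca7 (adjusted p from 0.0715 to 0.170). Early, 4 of the 11 rose and 1 fell (1 and 3 after median centring), so the share that rose was near the 37.1% of all genes. Abca7 was up by 2.56, Abca2 up at least 1.94-fold and Abca9 down, at -1.07 (adjusted p = 2.94e-06, 0.0202 and 0.000296). The Abca2 call was lost under quantile normalization (0.102) and median centring (0.198), and without E14.5 replicate 2 (0.230), E16.5 replicate 1 (0.0738) or E16.5 replicate 3 (0.0606).

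Of 12 genes of lamellar granule traffic and cargo, 4 fell and 1 rose late. Smpd1 and Lipn are also among the acylceramide partners above, and Cdsn among the granular markers, so these counts are not independent. The phospholipase gene Pla2g2f (-1.04 ± 0.13, adjusted p = 0.0014) and the sphingomyelinase gene Smpd1 (-0.97 ± 0.15, adjusted p = 0.00408) fell most, and the caveolin gene Cav1 rose by 0.60 ± 0.13 (adjusted p = 0.0171). The Cav1 call was lost without any 1 of the E16.5 arrays (0.0638, 0.0650 and 0.0730), without E18.5 replicate 2 (0.0501), under quantile normalization (0.132) and with no variance trend (0.0807). The mean of the Smpd1 probesets was not called (-0.32, adjusted p = 0.333). Early, 7 rose and 2 fell (4 and 4 after median centring). Among them were the desquamation protease gene Klk7 (at least 134.6-fold, adjusted p = 1.13e-08) and the corneodesmosin gene Cdsn (at least 90.3-fold, adjusted p = 2.14e-08), with Vipas39 (-0.88, adjusted p = 0.00362) and Clip1 (-0.70, adjusted p = 0.000549) lower. The mean of the Clip1 probesets gave 0.41 (adjusted p = 0.181) and that of Vipas39 -0.46 (adjusted p = 0.0711).

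Of 10 other Cyp4 genes, none was called lower in the second interval, beside 5.21% of all genes, and Cyp4b1 rose by 0.75 ± 0.15 (adjusted p = 0.0128), a call lost without replicate 1 or 3 of E16.5 (0.0614 and 0.0715). Early, 4 of the 10 rose, near the 37.1% of all genes called higher, and the list median was -0.01. Among the 4 were Cyp4f13 (at least 2.496-fold, adjusted p = 0.00506) and Cyp4b1 (1.76 ± 0.17, adjusted p = 6.3e-06). After median centring 1 rose and 4 fell. The Cyp4f13 call was lost without E14.5 replicate 1 (0.0507), after quantile normalization (0.0850) and after median centring (0.0917).

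Of 14 sulfotransferases and sulfate-donor genes besides Sult2b1, 3 fell and 1 rose late. The sulfate-donor synthase gene Papss2 fell by 1.34 ± 0.13 (adjusted p = 0.000476) and the sulfate transporter gene Slc26a2 by 1.01 ± 0.13 (adjusted p = 0.00181), in the interval in which Sult2b1 fell. The mean of the 4 Papss2 probesets was not called (-0.39, adjusted p = 0.244). Early, 3 rose and 2 fell (1 and 10 after median centring): Papss1 rose by 2.02, Sult1a1 by 1.56, and Sult1d1 fell at least 2.29-fold (adjusted p = 6.79e-07, 0.000262 and 0.0149). The Sult1d1 call was lost without E14.5 replicate 1 (0.133), and that of Sult1a1 after quantile normalization (0.0550) and median centring (0.0580).

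Of 19 factors linked to barrier lipid genes, 5 fell and 4 rose late, and 10 rose and 4 fell early (7 and 9 after median centring). Grhl3, a Grainyhead-like factor of barrier formation, fell late by 1.80 ± 0.22 (adjusted p = 0.00127), and the nuclear receptor gene Ppard by 1.55 ± 0.28 (adjusted p = 0.00824; the mean of its probesets gave 0.0653). Both had risen early, by 2.90 and 4.27 (adjusted p = 2.47e-06 and 9.13e-07). Ppard had a mean signal of 48.9 (SD 36.5) at E14.5, near the background of those arrays (43.9 and 45.7). This rise and fall, also called for Alox12b, Pnpla1, Cyp4f39 and Sult2b1, was held by 3.18% of all genes. Abca7 and Ivl had it too, and a link to the members was not tested. Vdr rose late by 1.78 ± 0.34 (adjusted p = 0.0103) and Tfap2c by 1.15 ± 0.13 (adjusted p = 0.000751). The largest early rises were those of Rora (5.37) and Cebpb (4.78), and the largest early drops those of Tfap2c (-3.36) and Grhl2 (-2.65), with adjusted p = 1.81e-08, 1.49e-08, 3.82e-08 and 1.27e-07. The mean of the Grhl2 probesets gave 0.46 (adjusted p = 0.203).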

How the data were processed

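Whole dorsal skin RNA was measured on 8 Affymetrix arrays with 45101 probesets. The deposited values are signal intensities on a linear scale, which the authors made with Affymetrix Expression Console 1.1 and PLIER 2.0, per the submitters' processing notes. No source used here states the background correction or how arrays were normalized. Per the labels' protocols, targets were amplified with random hexamers and hybridised as sense DNA, a whole-transcript procedure. Stages came from the age label, and replicate numbers follow accession order and pair nothing.

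Here 64 control probesets and those without exactly 1 symbol (932 with several, 9211 with none) were left out, and log2(signal + 16) was fitted in limma 3.58.1 (R 4.3.3) with 1 mean a stage over 8 arrays and a variance trend. The fit was run on simulated data with independent noise drawn from its own variance estimates. That run does not cover deviations that genes share on an array. Where any array of the dimmer stage was at or below background, it was raised to that background and the fold written as "at least". A gene was read on the probeset with the highest mean. Named genes are the 2 called genes that rose most and the 2 that fell most in each list and interval, where the higher stage mean was above background, with the 3 nearest profiles of each member. The members, lists and tests were chosen with earlier results of these data known. The promoter windows are RefSeq's. Alternatives covered the pseudocount, normalization, filters, variance model, choice of probesets and leaving out each array. Precision is limited by the number of arrays.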

Additional observations from a re-analysis of the deposited data

How the results depend on the processing

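Of the single-probeset results, 598 of 673 alternatives between E16.5 and E18.5 kept direction and side of the threshold, 757 of 792 between E14.5 and E16.5, 147 of 157 between E14.5 and E18.5, and 148 of 149 for the second change minus the first. The 3742 probesets called between E16.5 and E18.5 became 2435 with no variance trend, 2340 genes on the brightest probeset and 1751 on the mean of probesets. They ranged from 1208 (without E16.5 replicate 3) to 4120 with 1 array left out, and were 1662 without E16.5 replicate 1 and 1563 without E16.5 replicate 2. For the E16.5 to E14.5 comparison, 20117 became 10526 and 9599 under those choices of 1 value a gene. The E18.5 to E14.5 count went from 20883 to 11129 and 10330, and that of the second change minus the first from 15677 to 8225 and 7033. Fewer tests enter there.

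Between E16.5 and E18.5 the count of members called lower, 4, was 2 with no variance trend and ranged from 2 to 4 with 1 array left out (2 without replicate 2 of E16.5, replicate 3 of E16.5 or replicate 1 of E18.5). On the mean of probesets, Abhd5 gave 0.36 from E14.5 to E16.5, 0.44 from E14.5 to E18.5 and -0.28 for the second change minus the first, so that 0 members were lower, 0 lower and 0 higher. That mean includes the Abhd5 probeset that was below background on every array. At E18.5 against E14.5, 5 members were higher, but 2 under median centring. There 1 was lower, but 2 under median centring (Cyp4f39 at -0.75), and 0 under quantile normalization, with no variance trend and with only the compared arrays; with 1 array left out it was 0 (without E14.5 replicate 2) to 1. Signs also turned for the second Abhd5 probeset without E18.5 replicate 3 (-0.36 to 0.026 between E16.5 and E18.5 with 1 array left out), for Clip1 (0.41) and Grhl2 (0.46) on the mean of probesets, and under median centring for Alox5ap (-0.046), Cers3 (-0.70, called lower) and Nipal4 (-0.31). Cers3 ranged from -0.063 (without E14.5 replicate 1) to 0.56 with 1 array left out. The cause was not tested. The lipoxygenase difference moved by -1.29 to -0.87 with 1 array left out. Without 1 of the 2 E14.5 arrays, the other is assumed to vary like the other stages. No paired analysis was possible because the labels give no replicate numbers as such, and what the codes in the titles stand for is not known; a shared litter cannot be told from them. Abca12, near background at E14.5 and E18.5, is the member whose reading is most limited by its signal.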
